A study of Mus musculus with 20 samples.

Results

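The genes described are 10 muscle contractile genes measured in mouse hypothalamus, out of 18704 genes with a probe set that carries a single gene symbol. They are 7 genes of striated muscle (Actc1, Myh6, Myh7, Tnnt2, Tnnt1, Tnnc1 and Myl4) and 3 of smooth muscle (Mylk, Acta2 and Tagln). The genes were chosen by their names, with the difference between the 6 h arrays and the later arrays of these same data in view, so that difference is given below as a description and carries no test. Each gene had 1 probe set, and all 10 were among the 14129 genes whose mean intensity passed the minimum of 7.04 on the log2 scale. Myh6 and Tnnt1 passed it narrowly, with means over the 20 arrays of 7.14 and 7.05. The median of the 13 later arrays of Myh6 was 6.96, below the minimum, so Myh6 passed through its 6 h arrays.

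The animals were male C57BL/6J mice made obese by a diet with 45% fat that began at 4 weeks of age and lasted 16 weeks. All received injections into the peritoneum, either of the solvent dimethyl sulfoxide (DMSO), the vehicle control, or of celastrol, a plant triterpenoid, dissolved in DMSO. The volume was 25 µl per day in every group, so the number of injections may differ between 6 h and the later times. Vehicle mice had 3 arrays each at 6 h, 1 day and 4 days, and celastrol mice had 4 at 6 h, 4 at 1 day and 3 at 4 days. The labels put the celastrol dose of 250 µg/kg beside the 6 h time only, describe replicates as biological, and do not say whether an array holds 1 animal or a pool. No untreated or lean group was analysed here, so a value at 6 h has only the later arrays of its own treatment and the other treatment to stand against.

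Muscle contracts when myosin motors pull on actin filaments. In striated muscle, heart and skeletal, the filaments are ordered into sarcomeres and calcium acts through the troponin complex on the thin filament, while in smooth muscle calcium acts through calmodulin and myosin light chain kinase. Heart and skeletal muscle share many sarcomere proteins but use different members of the actin, myosin and troponin families. The brain holds smooth muscle in the walls of its arteries, with pericytes on its capillaries, and it holds no striated muscle fibres.

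Values are log2 intensities from Affymetrix Mouse Gene 1.0 ST arrays, as deposited, so a difference of 1 is a doubling of intensity, and the levels of different probe sets are not compared with each other. Array medians lay between 8.596 and 8.653. All 17 hypothalamus marker genes on the array were above the intensity minimum, and the brightest of them, Pmch and Hcrt, neuropeptide genes of the lateral hypothalamus, had means of 12.9 and 12.6. Among the vehicle arrays, replicate 3 at 6 h and replicate 3 at 1 day lay far from their groups, at 11.4 and 9.61 on the first principal component of the residuals, where all other arrays lay between -6.13 and 5.32. Several of the results that rest on them are also given without them.

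Promoter sequences are shown for the genes that were higher at 6 h, Actc1, Myh6, Tnnt2 and Tnnc1, and for a striated and a smooth muscle gene that were not, Myh7 and Acta2. They come from RefSeq on the GRCm38.p6 build, which held an entry for 9 of the 10 genes. Each runs from 250 bases before to 50 bases after an annotated start, on the gene's own strand. For Myh6, Mylk and Myl4 the window lies wholly inside the gene's annotated span, so it is not at the gene's outermost start. Capitals mark the matches to 5 motifs, searched on both strands. The CArG box is bound by serum response factor and the MEF2 site by the factors of that name, and both serve many muscle genes. The motif TATAAA is the core of the element that places the start of transcription. The motif CATTCC is bound by factors of the TEAD family, and the motif GATAA by factors such as the heart regulator Gata4.
Actc1, chr2:114052826-114053125, minus strand: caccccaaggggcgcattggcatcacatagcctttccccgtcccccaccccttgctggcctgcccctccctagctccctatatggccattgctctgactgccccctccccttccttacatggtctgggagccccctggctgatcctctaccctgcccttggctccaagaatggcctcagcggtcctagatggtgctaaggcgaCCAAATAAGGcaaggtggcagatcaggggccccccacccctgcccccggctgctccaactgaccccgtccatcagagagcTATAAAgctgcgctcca
Myh6, chr14:54966558-54966857, minus strand: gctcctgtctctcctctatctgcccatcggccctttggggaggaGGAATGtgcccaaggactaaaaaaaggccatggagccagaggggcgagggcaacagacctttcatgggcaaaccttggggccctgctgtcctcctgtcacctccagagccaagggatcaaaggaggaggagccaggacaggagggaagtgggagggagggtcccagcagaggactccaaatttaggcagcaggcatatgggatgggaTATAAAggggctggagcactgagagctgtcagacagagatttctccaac
Tnnt2, chr1:135836084-135836383, plus strand: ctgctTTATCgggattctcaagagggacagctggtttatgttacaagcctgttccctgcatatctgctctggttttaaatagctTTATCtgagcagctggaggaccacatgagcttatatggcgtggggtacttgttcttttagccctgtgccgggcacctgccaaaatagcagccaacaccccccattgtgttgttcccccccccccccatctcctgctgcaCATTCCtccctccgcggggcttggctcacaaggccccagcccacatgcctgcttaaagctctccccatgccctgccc
Tnnc1, chr14:31208062-31208361, plus strand: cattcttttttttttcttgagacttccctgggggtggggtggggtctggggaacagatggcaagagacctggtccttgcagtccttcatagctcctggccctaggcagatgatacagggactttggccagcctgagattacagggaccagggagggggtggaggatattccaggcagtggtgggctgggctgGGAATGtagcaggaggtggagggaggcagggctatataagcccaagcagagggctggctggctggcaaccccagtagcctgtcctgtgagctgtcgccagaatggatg
Myh7, chr14:54994577-54994876, minus strand: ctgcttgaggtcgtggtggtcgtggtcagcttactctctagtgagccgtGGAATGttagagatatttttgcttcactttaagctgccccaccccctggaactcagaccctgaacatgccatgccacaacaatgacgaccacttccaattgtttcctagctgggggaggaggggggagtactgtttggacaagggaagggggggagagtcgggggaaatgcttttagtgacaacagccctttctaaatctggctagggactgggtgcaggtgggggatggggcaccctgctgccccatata
Acta2, chr19:34255324-34255623, minus strand: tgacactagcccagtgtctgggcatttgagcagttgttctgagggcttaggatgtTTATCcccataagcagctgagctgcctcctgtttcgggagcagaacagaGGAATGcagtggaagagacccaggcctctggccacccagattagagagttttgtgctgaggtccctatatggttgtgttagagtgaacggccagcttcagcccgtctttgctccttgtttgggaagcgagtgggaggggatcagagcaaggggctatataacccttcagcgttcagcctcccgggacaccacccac
Actc1 held the sequence CCAAATAAGG, a CArG box, at positions -47 to -38 from the annotated start, and none of the other 8 promoters searched held an exact match. Only the exact form CCWWWWWWGG, where W is A or T, was counted, so near matches such as ccctatatgg in Acta2 were not. A CArG box was present in 1.63% of all 32851 mouse promoters of the same length, and a MEF2 site, found in none of the 9, in 0.557%. CATTCC or its complement was present in Myh6, Tnnt2, Tnnc1, Myh7, Acta2 and Mylk, against 14.7% of all promoters. In Tnnt2 it lay at -27 to -22 and in Tnnc1 at -58 to -53. TATAAA was present in Actc1, Myh6 and Tnnt1, against 13.6% of all promoters. It lay after the annotated start in Actc1 (34 to 39) and Myh6 (2 to 7), and before it in Tnnt1 (-30 to -25). GATAA was present in Tnnt2 and Acta2, against 25.4%. The genes with higher values at 6 h thus shared none of the 5 motifs as a set, and CATTCC was also present in Myh7, Acta2 and Mylk. These matches describe letters in a window and are not evidence of binding.

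The 4 genes Actc1, Myh6, Tnnt2 and Tnnc1, which encode parts of the thin and thick filaments of heart muscle, stood higher at 6 h than at 1 day and 4 days in vehicle mice and in celastrol mice alike. Actc1, cardiac alpha-actin of the thin filament, differed most, by 2.93-fold with vehicle and 2.09-fold with celastrol. Myh6, Tnnc1 and Tnnt2 differed by 1.21-fold to 1.51-fold. The other 3 striated genes and the 3 smooth muscle genes had differences between -0.15 and 0.13 on the log2 scale.

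In vehicle mice Actc1 measured 8.89, 9.61 and 10.03 at 6 h, then 8.06, 8.13 and 7.73 at 1 day and 8.02, 7.98 and 7.83 at 4 days. In celastrol mice it measured 8.66, 9.77, 8.71 and 8.80 at 6 h, then 7.96, 7.81, 8.03 and 7.78 at 1 day and 7.87, 8.01 and 7.98 at 4 days. Every one of the 7 arrays at 6 h was above every one of the 13 later arrays, the highest of which reached 8.13. The 6 h arrays were also the most spread, with an SD of 0.58 (n = 3) for vehicle against 0.21 and 0.099 at the later times. The 6 h minus later difference, 6 h against the mean of 1 day and 4 days, was 1.55 ± 0.21 (SE) in vehicle mice and 1.06 ± 0.19 in celastrol mice. In the average of both treatments, 1.31, Actc1 ranked 1 among all 14129 genes. In vehicle mice the difference was 1.23 without both vehicle replicates that stood apart, and in celastrol mice it was 0.80 without replicate 2 at 6 h.

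Myh6 encodes the alpha myosin heavy chain, the main motor of the adult mouse heart. With vehicle it measured 7.42, 7.59 and 7.86 at 6 h, 7.06, 7.04 and 7.05 at 1 day and 7.17, 6.98 and 6.84 at 4 days. With celastrol it measured 7.24, 7.47, 7.21 and 7.42 at 6 h, 6.77, 6.96, 6.95 and 6.84 at 1 day and 6.90, 6.92 and 7.06 at 4 days. The 7 arrays at 6 h again all lay above the 13 later ones, although 8 of those 13 were below the intensity minimum. The measured difference was 0.60 ± 0.084 (SE) with vehicle and 0.41 ± 0.075 with celastrol. Since the later level lies at the dim end of the array, the size of these differences is less certain than for the brighter genes.

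Tnnt2 encodes cardiac troponin T, which ties the troponin complex to tropomyosin. With vehicle it measured 9.04, 9.20 and 9.25 at 6 h, 8.88, 8.90 and 8.76 at 1 day and 8.80, 8.56 and 8.80 at 4 days. With celastrol it measured 9.03, 9.29, 8.91 and 8.99 at 6 h, 8.74, 8.71, 8.82 and 8.77 at 1 day and 8.66, 8.68 and 8.60 at 4 days. The 6 h and later arrays did not overlap, but the lowest 6 h array, celastrol replicate 3, was only just above the highest later array, vehicle replicate 2 at 1 day. The difference was 0.38 ± 0.072 (SE) with vehicle and 0.35 ± 0.064 with celastrol, and it ranked 18.

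Tnnc1 encodes troponin C, the calcium sensor of heart and slow skeletal muscle. With vehicle it measured 8.13, 8.52 and 8.62 at 6 h, 7.99, 7.93 and 7.88 at 1 day and 8.02, 7.79 and 7.94 at 4 days. With celastrol it measured 8.07, 8.37, 8.11 and 8.14 at 6 h, 7.88, 7.93, 8.07 and 8.01 at 1 day and 7.95, 7.59 and 7.93 at 4 days. At 6 h 1 array, celastrol replicate 1, overlapped the later arrays, and the other 6 were above all of them. The difference was 0.50 ± 0.096 (SE) with vehicle and 0.28 ± 0.086 with celastrol, and it ranked 14. Without both vehicle replicates that stood apart, the vehicle differences of Myh6, Tnnt2 and Tnnc1 were 0.48, 0.32 and 0.39.

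**Figure D1:**
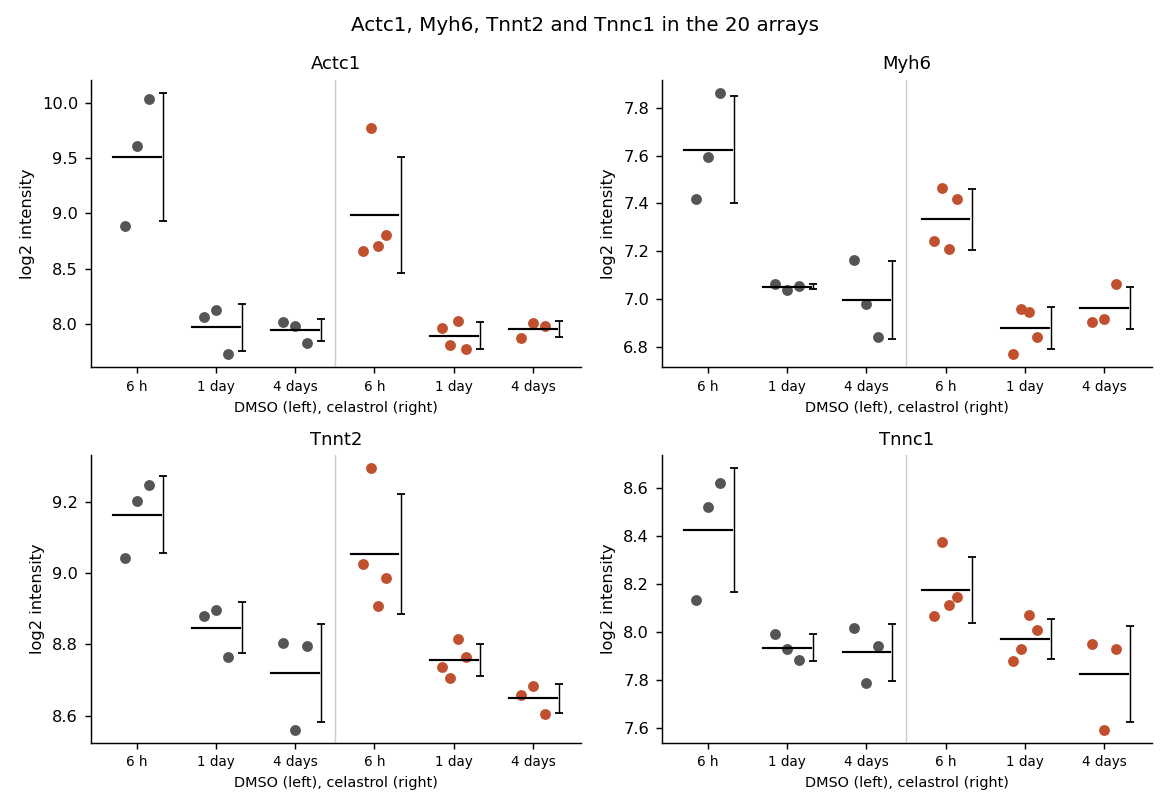
Log2 intensity of Actc1, Myh6, Tnnt2 and Tnnc1 in each array (points), with the group mean (line) and SD (bar), for DMSO (grey) and celastrol (orange) at 6 h, 1 day and 4 days. The 6 h points of both treatments lie above the later ones in the panels of Actc1, Myh6 and Tnnt2, and 6 of 7 do so for Tnnc1.

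All 7 arrays at 6 h were above all 13 later arrays in 9 genes, 0.0637% of those tested, and Actc1, Myh6 and Tnnt2 are 3 of these. Nothing further is read from these counts, since the genes were chosen on this contrast and Myh6 passed the intensity minimum through its 6 h arrays.

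The remaining striated genes showed no such separation. Myh7, the beta myosin heavy chain of ventricle and slow muscle, which lies beside Myh6 in the genome, measured 7.74, 7.93 and 7.66 in the vehicle arrays at 6 h and 7.67 to 7.92 at the later times. With celastrol it spanned 7.71 to 7.92 at 6 h and 7.69 to 7.91 later, so both treatments overlapped almost wholly. The Myh7 difference was -0.00028 ± 0.065 (SE) with vehicle and 0.029 ± 0.058 with celastrol. Tnnt1, slow skeletal troponin T, spanned 6.96 to 7.19 at 6 h and 6.92 to 7.24 later with vehicle, and 6.94 to 7.18 against 6.83 to 7.17 with celastrol, at the dim end throughout. Myl4, the atrial and embryonic essential light chain, spanned 8.50 to 8.73 at 6 h and 8.42 to 8.73 later with vehicle. With celastrol 3 of its 4 arrays at 6 h were above all 7 later ones, with a difference of 0.096 ± 0.053 (SE).

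Among the smooth muscle genes, Mylk, myosin light chain kinase, was lower at 6 h in vehicle mice. It measured 7.96, 7.81 and 7.88 there and 7.97 to 8.09 at the later times, without overlap, as 2.28% of all genes did in this direction. Its difference was -0.14 ± 0.046 (SE). In celastrol mice Mylk spanned 8.05 to 8.16 at 6 h and 7.98 to 8.13 later and overlapped. Acta2, smooth muscle alpha-actin, spanned 9.18 to 9.48 at 6 h and 9.33 to 9.64 later with vehicle, a difference of -0.15 ± 0.098 (SE). Tagln, the actin-binding protein transgelin, spanned 7.56 to 7.77 at 6 h and 7.59 to 7.998 later with vehicle. With celastrol 3 of 4 arrays of Tagln at 6 h were above all later ones, and its difference was 0.13 ± 0.063 (SE). The 3 smooth muscle genes therefore lay below 0 in vehicle mice, where their median difference was -0.14, and on both sides of it in celastrol mice, where it was 0.038.

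**Figure D2:**
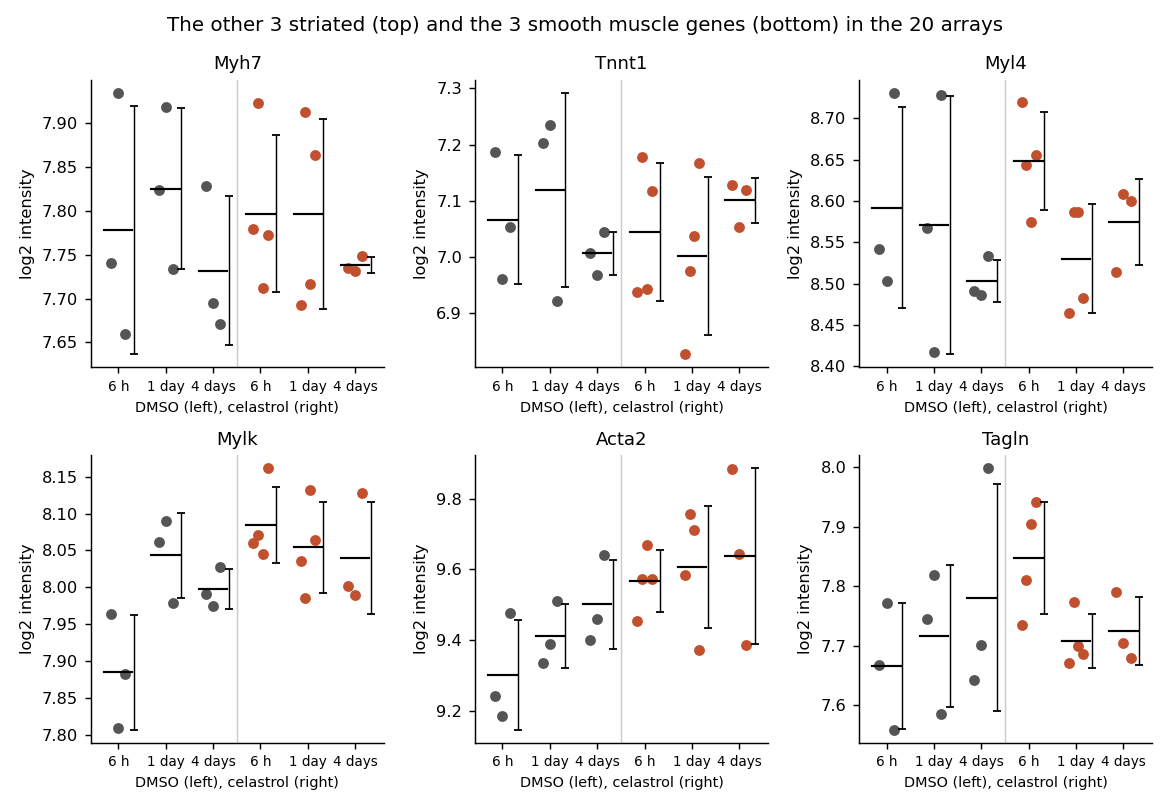
Log2 intensity of Myh7, Tnnt1 and Myl4 (striated) and of Mylk, Acta2 and Tagln (smooth muscle) in each array (points), with the group mean (line) and SD (bar), for DMSO (grey) and celastrol (orange). The 6 h and later points overlap in every panel, apart from the 3 vehicle arrays of Mylk at 6 h, which lie below the later vehicle arrays.

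**Figure D3:**
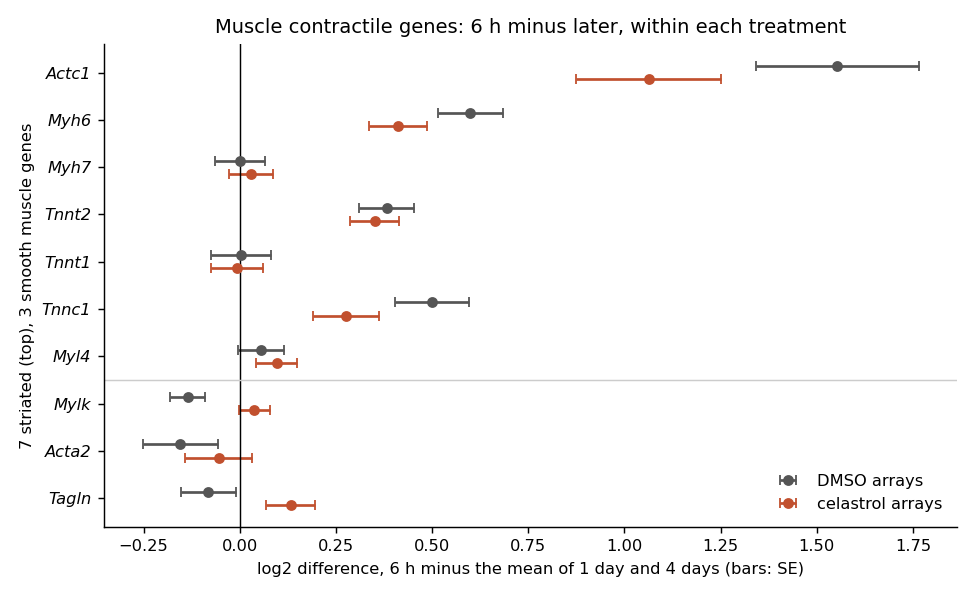
Difference on the log2 scale between 6 h and the mean of 1 day and 4 days for the 10 genes, within DMSO (grey) and within celastrol (orange), with the standard error as a bar. Actc1 lies at 1.55 and 1.06, Myh6, Tnnt2 and Tnnc1 between 0.28 and 0.60, and the other 6 genes between -0.15 and 0.13.

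The contrast between the muscle types was followed array by array as the mean of the 7 striated genes minus the mean of the 3 smooth muscle genes. Only changes of this quantity between arrays have a meaning, since it sets different probe sets together. In vehicle mice it was -0.16, 0.077 and 0.15 at 6 h and between -0.75 and -0.44 at the later times. In celastrol mice it was -0.35, -0.11, -0.52 and -0.43 at 6 h and between -0.74 and -0.53 later. The 6 h arrays were above all later arrays of their own treatment, narrowly so for celastrol replicate 3. Between 6 h and later the quantity differed by 0.57 with vehicle and 0.28 with celastrol. The mean of Myh7, Tnnt1 and Myl4 was 7.81 at 6 h with vehicle, against 7.84 at 1 day and 7.75 at 4 days. With celastrol it was 7.83, against 7.78 and 7.80. Actc1, Myh6, Tnnt2 and Tnnc1 thus carried most of the change in the striated mean. With vehicle the smooth muscle mean was 8.28 at 6 h, against 8.39 and 8.43, and with celastrol 8.50, against 8.46 and 8.47. Without the 2 vehicle arrays that stood apart, the vehicle value was 0.49.

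The 4 genes Actc1, Myh6, Tnnt2 and Tnnc1 also varied together from array to array. After subtraction of each group's mean, their 6 pairwise Pearson correlations over the 20 arrays lay between 0.46 and 0.77, with a median of 0.68. Over the 7 arrays at 6 h the median was 0.86, and over the 13 later arrays it was 0.30. The mean of the 4 genes was 8.37, 8.73 and 8.94 in the vehicle arrays at 6 h and 8.25, 8.73, 8.23 and 8.34 in the celastrol arrays at 6 h, against 7.80 to 8.001 in the later arrays. Vehicle replicates 2 and 3 and celastrol replicate 2 at 6 h were thus the highest in the set. Correlations of the 4 genes with Myh7, Tnnt1 and Myl4 were lower, with a median of 0.23 over 12 pairs, and those with the smooth muscle genes had a median of 0.035 over 12 pairs. The smooth muscle genes correlated with each other at -0.28 to 0.26. All pairs come from the same arrays and share each array's RNA and its normalisation.

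Treatment was compared with vehicle at each time. At 6 h this comparison uses arrays that were in view when the genes were chosen. Differences between treatments at 6 h are therefore not free of that choice. None of the 10 genes passed the threshold of 0.05 after Benjamini-Hochberg adjustment over the 14129 genes in limma's test at 6 h, 1 day or 4 days. The background was also low, with 0% of genes called at 6 h, 0.425% at 1 day and 0.0637% at 4 days. At 6 h an unadjusted p under 0.05 was found for 6 of the 10 genes, against 7.55% (1067) of all genes. Nothing further is read from this count, since the 6 h arrays guided the choice of genes. Myh6, 1 of the 6, also passed the intensity minimum through its 6 h arrays.

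The 6 genes with an unadjusted p under 0.05 at 6 h were Actc1, Myh6 and Tnnc1, lower with celastrol, and the 3 smooth muscle genes, higher. None of them passed the adjusted threshold. Actc1 averaged 8.99 ± 0.52 (SD, n = 4) with celastrol and 9.51 ± 0.58 (n = 3) with vehicle, a log2 difference of -0.52 ± 0.23 (SE, limma adjusted p = 0.651). The 2 groups of Actc1 arrays overlapped. Without vehicle replicate 3 the Actc1 difference was -0.26, without vehicle replicate 1 it was -0.84, and without celastrol replicate 2 it was -0.79. Myh6 differed by -0.29 ± 0.091 (SE, limma adjusted p = 0.582) and Tnnc1 by -0.25 ± 0.10 (limma adjusted p = 0.647). The other 4 striated genes measured -0.11 (Tnnt2), -0.022 (Tnnt1), 0.018 (Myh7) and 0.056 (Myl4). Mylk differed by 0.20 ± 0.050 (SE, limma adjusted p = 0.431), with all 4 celastrol arrays above all 3 vehicle arrays, as in 1.91% of all genes. Acta2 differed by 0.27 ± 0.11 (SE) and Tagln by 0.18 ± 0.077, with adjusted p of 0.644 and 0.647 from limma, and in both the treatment groups overlapped. None of these differences passed once the number of genes tested was taken into account.

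At 1 day the differences between celastrol and vehicle ranged from -0.17 (Myh6) to 0.19 (Acta2), with limma adjusted p of 0.648 at the lowest. At 4 days they ranged from -0.091 (Tnnc1) to 0.14 (Acta2), with limma adjusted p of 0.912 at the lowest. No gene of the 10 reached an unadjusted p under 0.05 at either time. For Actc1 the 95% interval at 4 days ran from -0.50 to 0.52 on the log2 scale, so a change of that size in either direction could not be told from none.

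**Figure D4:**
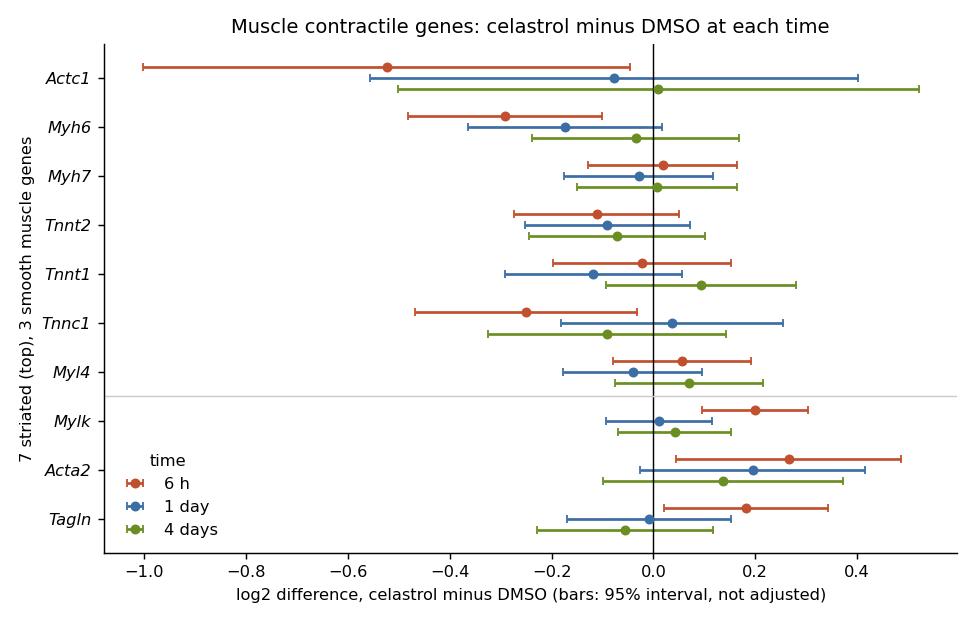
Log2 difference between celastrol and DMSO for the 10 genes at 6 h, 1 day and 4 days, with unadjusted 95% intervals as bars. At 6 h Actc1, Myh6 and Tnnc1 lie below 0 and Mylk, Acta2 and Tagln above it with intervals that do not reach 0, and at 1 day and 4 days the intervals of all 10 genes include 0.

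Whether the treatment difference at 6 h departed from that at the later times was tested as an interaction. It equals the 6 h minus later difference with celastrol minus that with vehicle. Both were in view when the genes were chosen, so its p-values are not separate from that choice. None of the 10 genes passed in limma, against a background of 0.0142% of genes (2 genes). An unadjusted p under 0.05 was found for 2 of the 10, Mylk and Tagln, against 11.6% (1632) of all genes. The interaction was 0.17 ± 0.061 (SE) for Mylk and 0.21 ± 0.095 for Tagln, with limma adjusted p of 0.353 and 0.404, and for Actc1 it was -0.49 ± 0.28 with a limma adjusted p of 0.497. The 6 h minus later difference therefore had no detected dependence on treatment in any of the 10 genes, and the interval for Actc1, -1.08 to 0.10, covers a wide range.

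The later times were compared with each other, a contrast that uses no 6 h array. Between 1 day and 4 days none of the 10 genes was called by limma in vehicle mice, where 0% of all genes were, or in celastrol mice, where 0.0425% were. None reached an unadjusted p under 0.05 in either treatment. In vehicle mice the differences ran from -0.13 for Tnnt2 to 0.089 for Acta2, and in celastrol mice from -0.15 for Tnnc1 to 0.098 for Tnnt1.

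Other genes of the same muscle programmes were then examined in the 6 h minus later contrast averaged over both treatments, in which 3.05% of the 14129 genes were called by limma, 136 higher and 295 lower at 6 h. In 3 lists of striated genes, other sarcomere genes, calcium handling and energy genes, and cardiac regulators with natriuretic peptides, 10 of 45 tested genes (22.2%) were called higher at 6 h and 0 were called lower. Called or not, 34 of the 45 were above 0. These lists were chosen with earlier results of these data known, and the contrast is the one that guided the choice of the 10 genes. The share called is therefore a description and not separate support. A further striated list, skeletal muscle regulators and endplate genes, had 0 of 7 tested genes called. The median difference of the 45 genes was 0.071, against -0.0058 over all genes. A further 28 of the 73 genes on the array were too dim to be tested. All differences below are on the log2 scale with limma adjusted p over all genes.

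Of the 17 other sarcomere genes tested, 6 were called higher at 6 h. Ttn, the giant spring protein titin, differed by 0.23 ± 0.035 (SE, adjusted p = 0.0021) and Tnni3, cardiac troponin I, by 0.29 ± 0.055 (adjusted p = 0.011). Tnni3 measured 7.80, 7.97 and 8.11 in the vehicle arrays at 6 h against 7.46 to 7.74 later, and 7.63 to 8.10 in the celastrol arrays at 6 h against 7.40 to 7.65 later. Myl3, the ventricular essential light chain, differed by 0.29 ± 0.057 (adjusted p = 0.014). Acta1, skeletal alpha-actin, differed by 0.24, Des, the intermediate filament protein desmin, by 0.22 and Csrp3, a Z-disc protein, by 0.22. Leaving out single arrays kept Ttn, Tnni3, Myl3, Acta1 and Des past the threshold in 20 of 20 fits and Csrp3 in 15. Csrp3 did not pass without both vehicle arrays that stood apart. Over the 17 genes the median difference was 0.089, and 13 were above 0.

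Among 20 tested genes of calcium handling and energy supply, 2 were called, both higher. Pln, phospholamban, the inhibitor of the calcium pump of heart sarcoplasmic reticulum, differed by 0.66 ± 0.13 (SE, adjusted p = 0.016). It measured 7.58, 7.59 and 8.58 in the vehicle arrays at 6 h and 7.33, 8.27, 7.31 and 7.37 in the celastrol arrays at 6 h, against 6.70 to 7.20 in the later arrays. Vehicle replicate 3 and celastrol replicate 2, 2 of the 3 arrays with the highest Actc1, were the highest for Pln also. Mb, myoglobin, the oxygen store of heart and slow muscle, differed by 0.37 ± 0.052 (adjusted p = 0.0012), with 6 h arrays at 8.01 to 8.16 and later arrays at 7.53 to 7.92. Ryr2 and Atp2a2, the release channel and pump for calcium in heart that neurons also express, measured -0.085 and -0.054, and Cacna1s, the skeletal muscle calcium channel, measured 0.10, and none of the 3 passed. Over the 20 genes the median was 0.051.

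Of 8 tested cardiac regulators, Nppa and Nppb, the natriuretic peptide genes of atrium and ventricle, were called higher, by 0.26 ± 0.066 (SE, adjusted p = 0.039) and 0.22 ± 0.049 (adjusted p = 0.022). Nppa passed in only 8 of the 20 fits that left out an array and Nppb in 18. Without both vehicle arrays that stood apart Nppa did not pass. Smyd1 and Hand2 measured 0.098 and 0.11 and did not pass. All 7 tested skeletal muscle regulators and endplate genes were above 0, none passed, and Musk, Myog, Myod1 and Pax7 measured between 0.043 and 0.11. Skeletal muscle's Ckm and Tnnt3 measured 0.13 and 0.089 and did not pass either.

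Genes whose mean lay below the intensity minimum were not tested, and 2 of them, chosen after their values were seen, are described by their ranges alone. Myl2, the ventricular regulatory light chain, spanned 6.87 to 7.70 at 6 h and 6.15 to 6.47 later with vehicle, and 6.64 to 7.14 against 6.21 to 6.46 with celastrol. Ankrd1, a stretch-responsive cardiac protein, spanned 6.71 to 7.30 at 6 h and 6.22 to 6.52 later with vehicle, and 6.58 to 7.15 against 6.23 to 6.51 with celastrol. In both genes every later array lay below the minimum of 7.04, so no size is given for the difference. As an alternative with no minimum, 15 of the 73 genes of the 3 lists on the array were called higher. Of these 6 were dim, out of 28 dim genes. The share of all genes called with no minimum is not given here, so nothing is read from this count.

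Other smooth muscle genes were read in the same contrast. Of 17 other smooth muscle contractile genes tested, 6 were above 0 and 11 below, the median was -0.013, and only Synpo2 was called. Synpo2, an actin-bundling protein that striated muscle also expresses, was higher at 6 h by 0.34 ± 0.058 (SE, adjusted p = 0.0059). It measured 8.89, 8.76 and 9.25 with vehicle at 6 h and 8.54 to 8.68 with celastrol at 6 h, against 8.30 to 8.72 later. The Synpo2 difference was 0.52 with vehicle and 0.16 with celastrol. For Prkcd, a thalamus marker described below, these values were 1.06 and 0.27. The source of the Synpo2 difference was not tested. Myh11, the smooth muscle myosin heavy chain, measured -0.085 ± 0.036 and Cnn1, calponin, 0.10 ± 0.073, and neither passed. Mrvi1, a brake on smooth muscle calcium release, measured 0.087 and Cald1, caldesmon, -0.044, and neither passed. None of the 10 nonmuscle actin and myosin genes was called, with values of -0.088 for Pfn1, 0.071 for Tpm3, 0.042 for Myh14 and -0.038 for Myh10.

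Within each treatment alone fewer genes passed. In vehicle mice, where 0.467% of all genes were called, 3 genes of the 3 striated lists passed, Ttn, Mb and Nppb, with adjusted p of 0.028, 0.026 and 0.034 from limma. Without the 2 vehicle arrays that stood apart, 0 of them passed, and 1 gene in all did. In celastrol mice, where 0.849% were called, 4 passed, Acta1, Ttn, Des and Mb, with adjusted p between 0.040 and 0.049 from limma. Of the 20 fits that each left out 1 array, Ttn passed with vehicle in 14 and Mb and Nppb in 13, while with celastrol Acta1 and Mb passed in 11, Ttn in 5 and Des in 4.

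**Figure D5:**
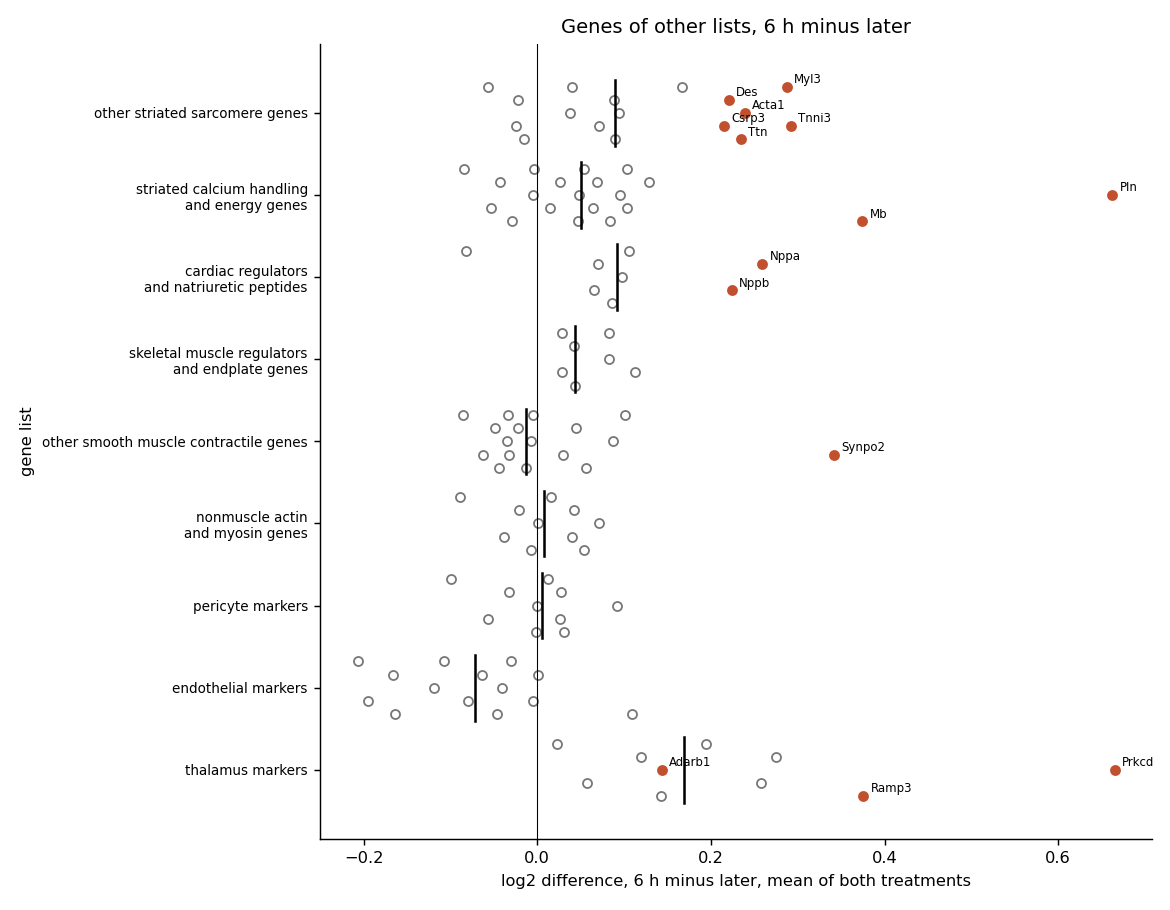
Log2 difference between 6 h and the later times, averaged over both treatments, for the tested genes of 9 lists. Filled orange points passed an adjusted p of 0.05 in limma and carry their names, open points did not, and black bars are list medians. Points that passed lie to the right in the 3 upper lists (10 of 45 genes), with Synpo2 the only one among other smooth muscle genes.

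Marker lists for other cell types and regions were read in the same contrast. The pericyte, endothelial, meningeal fibroblast, choroid plexus, striatum, cortex and hippocampus, pituitary and red blood cell lists had 0 genes called by limma, and of the 14 endothelial genes 12 were below 0 with a median of -0.072. The pituitary list, with 5 genes tested, had a median of 0.17, with 4 of 5 genes above 0 and a median of 0.25 in celastrol mice, and 2 of 5 and -0.045 in vehicle mice. Its mean over 9 genes was 7.79 ± 0.39 (SD, n = 4) in the celastrol arrays at 6 h, with 8.36 in replicate 4, against 7.33 at 1 day and 7.15 at 4 days. The part of these pituitary markers in the muscle gene differences was not tested. Medians of the other 6 of these lists lay between -0.051 and 0.041. Markers of the thalamus, which borders the hypothalamus, moved with the vehicle arrays. In vehicle mice 10 of 10 tested thalamus genes were above 0 at 6 h with a median of 0.27, and Prkcd and Adarb1 were called, with adjusted p of 0.017 and 0.036 from limma. In celastrol mice 7 of 10 were above 0 with a median of 0.074 and 0 were called. Averaged over both treatments Prkcd was higher by 0.67, Ramp3 by 0.38 and Adarb1 by 0.14, of which Ramp3 passed in only 4 of the 20 fits that left out an array. Without both vehicle arrays that stood apart, Prkcd and Adarb1 were not called in vehicle mice. In the average Prkcd then still passed, and Ramp3 and Adarb1 did not.

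The mean of the 11 thalamus genes on the array was 9.18, 8.94 and 9.50 in the vehicle arrays at 6 h, 9.02, 8.86, 8.93 and 8.82 in the celastrol arrays at 6 h, and 8.75 to 8.93 later. Vehicle replicate 3 at 6 h was the highest of all arrays both for these markers and for Actc1. Of the other vehicle arrays at 6 h, replicate 1 had the lower Actc1 and the higher thalamus mean. Among the celastrol arrays at 6 h, replicate 2 had the highest Actc1 and a thalamus mean within the later range, and replicate 1 had the lowest Actc1 and the highest thalamus mean. The hypothalamus gene Pmch was called lower at 6 h, by -0.16 ± 0.037 (SE, adjusted p = 0.030 from limma). Pmch did not pass without both vehicle arrays that stood apart. Of the 17 hypothalamus genes, 11 were above 0 and 6 below in the averaged contrast, with a median of 0.041. Only 1 of them, Pmch, was called. The mean of the 17 hypothalamus genes spanned 9.97 to 10.08 at 6 h and 9.93 to 10.09 later. The part of tissue sampling in the cardiac gene difference was not tested. In tissue of mixed cells, more cells of a type and more RNA per cell cannot be told apart.

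The actin genes Actc1, Acta1 and Acta2 have closely similar coding sequences, as do Myh6 and Myh7, and cross-hybridisation between their probe sets was not tested. With vehicle Actc1 differed between 6 h and later by 1.55, Acta1 by 0.18 and Acta2 by -0.15, and with celastrol they differed by 1.06, 0.30 and -0.055. Acta1 thus lay on the same side as Actc1 in both treatments. Myh6 differed by 0.60 with vehicle and 0.41 with celastrol, and Myh7 by -0.00028 and 0.029.

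The genes most like the mean of the 7 striated genes over the 20 arrays were Myl3, Tnni3, Pln, Ttn and Serinc1, with Pearson correlations of 0.92, 0.90, 0.89, 0.88 and 0.86. After subtraction of group means these were 0.82, 0.81, 0.72, 0.52 and 0.62. The first 4 belong to the striated lists and are sarcomere or heart calcium genes, and Serinc1 is a membrane protein gene expressed in brain. For the mean of the 3 smooth muscle genes the nearest were Rcc1l, Ltbr, Tgfbi, Lama4 and Armc7, with correlations of 0.84, 0.78, 0.72, 0.71 and 0.70. Lama4 is a laminin chain of vessel walls. The arrays share groups, RNA and normalisation, so these values only order the genes.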

How the data were processed

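RNA from the hypothalamus of obese male mice was measured on 20 Affymetrix Mouse Gene 1.0 ST arrays in 6 groups. The deposited table gives log2 intensities for 23492 probe sets. The submitters' processing notes name RMA and give no version or genome build. RMA quantile normalizes the arrays, so only changes relative to the other genes are seen. The platform annotation gave 1 symbol for 20228 probe sets, and the brightest stood for a gene. Genes below the 25th percentile of mean intensity were not tested.

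Differences were fitted in limma 3.58.1 (R 4.3.3) as 1 model of 6 group means with eBayes, all arrays sharing the spread (14 residual and 4.92 prior degrees of freedom), two-sided, adjusted by Benjamini-Hochberg over 14129 genes at 0.05. The procedure was tested on simulated data. With 3 or 4 arrays a group, the number of arrays limits the precision. The labels do not say that replicates are single animals, and if they are not, p-values measure only the spread between these samples. The labels name no batch or date, so none was entered.

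The 10 genes and the gene lists were chosen with earlier results of these data known. Named genes were all 10, from each muscle list the 4 with the smallest p in 6 h minus later and any past the threshold, the 5 genes most correlated with each muscle type's mean, and from each cell type list the brightest 2 and any past the threshold. Genes fitted with no minimum, and genes beyond this rule, were chosen after their values were seen. Residuals of same-numbered replicates correlated between -0.36 and 0.52, over 0.1 in 13 of 45 pairs and not in all, so the numbers were not taken to pair samples. Alternatives were the intensity minimum, probe set choice, scaling, weights, variance prior, left-out arrays and the replicate block.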

Additional observations from a re-analysis of the deposited data

Results flagged for a closer look

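Celastrol replicate 2 at 6 h had an Actc1 log2 intensity of 9.77 against 8.66 to 8.80 in the other 3 arrays of its group, a gap that exceeds Dixon's critical value for 4 arrays. It was 1 of 20 groups of 4 arrays tested over the 10 genes, and chance flags about 1 in 20. The same array also had the highest values of its group for Myh6, Tnnt2, Tnnc1, Tnni3 and Pln. It also had the highest mean of its group in 12 of the 16 other gene lists, among them the red blood cell (8.33), choroid plexus (7.73), hypothalamus (10.07), cortex and hippocampus (8.74), pericyte (8.77) and other smooth muscle (8.58) lists. Its mean over thalamus markers, 8.86, lay between those of the other arrays of its group. The part of these differences in its Actc1 value was not tested.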

How the results depend on the processing

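No member was called in any of the 6 tested contrasts under any alternative, the replicate block included, where the counts were also 0. Of the 90 single-gene values (10 genes in 9 contrasts), 34 changed sign under at least 1 alternative, all of them within 0.091 of 0 as reported, among them Myh7 in vehicle mice and Tnnt1 and Acta2 in celastrol mice. The 6 h minus later values of Actc1, Myh6, Tnnt2 and Tnnc1 stayed above 0 under all alternatives, with 0.80 to 1.87 for Actc1. With only probe sets above the median intensity, the smooth muscle median in celastrol mice was -0.055 (0.038 as reported), because 1 of 3 genes was left, and 0 genes of the 3 striated lists or of the other smooth muscle list were called. Counts of striated list genes called higher in vehicle mice (3) were 6 with no minimum, 1 with array weights and 0 without both vehicle arrays that stood apart, and 0 to 5 with 1 array left out. In celastrol mice (4) they were 0 with no minimum, 2 after renewed quantile normalization, 8 without those vehicle arrays and 0 to 6 with 1 array left out. Averaged over treatments (10), they were 7 to 10 with 1 array left out. Counts of all genes called moved more: 1 to 119 in vehicle mice (66), 8 to 750 in celastrol mice (120), 186 to 670 in the average (431), 18 to 196 for celastrol at 1 day (60), 0 to 20 at 4 days (9), 0 to 6 at 6 h (0), and for 4 days against 1 day 0 to 147 with vehicle (0) and 1 to 16 with celastrol (6). The interaction (2) gave 0 to 5. The cause was not tested. Under the replicate block, 301 genes were called in celastrol mice. Depth in the sense of signal over background limits Myh6 and Tnnt1, whose values lie near the dim end, and Pln, whose later values do.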

Other observations

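The brightest markers of the other cell types and regions showed the following 6 h minus later differences, averaged over both treatments, and none of them passed limma's adjusted threshold. Pericyte genes Vtn and Pdgfrb measured 0.027 each. Endothelial genes Slc2a1 and Slco1a4 measured 0.11 and -0.19. Meningeal Dcn and Igf2 measured 0.10 and 0.0082. Choroid plexus genes Clic6 and Kl measured -0.087 and -0.021, striatal Penk and Tac1 -0.054 and -0.12, and cortical Rasgrf2 and Wfs1 -0.058 and -0.028. Red blood cell genes Alas2 and Slc4a1 measured -0.082 and 0.16. The thalamus gene Ntng1 measured 0.14 and the hypothalamus gene Hcrt -0.16. The pituitary gene Cga measured 0.99 ± 0.60 (SE).

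Among the vessel and region markers, limma called 4 at 1 day between celastrol and vehicle. Cldn5, a tight junction protein of vessel endothelium, was lower with celastrol, with a log2 difference of -0.61 ± 0.10 (SE, adjusted p = 0.0086). Slc2a1, the glucose transporter of brain endothelium, was higher by 0.48 ± 0.092 (adjusted p = 0.020) and Vwf, an endothelial clotting protein, by 0.40 ± 0.083 (adjusted p = 0.036). Gpr6, a receptor of striatal neurons, was higher by 0.63 ± 0.094 (adjusted p = 0.0041). In celastrol mice Pde10a, a striatal phosphodiesterase, was lower at 6 h than later, with a difference of -0.15 (adjusted p = 0.048). The smooth muscle gene Acta2 measured 0.19 ± 0.11 (SE) at 1 day and did not pass.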
